A study of Mus musculus with 137 samples.

Results

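Cytosolic ribosomal protein genes were defined by symbol. A member carried Rpl or Rps followed by a number, with an optional final a, x or l, or was Rplp0, Rplp1, Rplp2 or Rpsa. Entries of processed pseudogenes and the Rps6k kinases were left out. The rule found 83 members among 36097 genes, 51 of the large subunit and 32 of the small subunit, and their mRNA was measured in mouse 2-cell embryos sequenced singly.

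The libraries came from B6129F1 embryos, each amplified on its own by SmartSeq2, a method that primes poly(A) RNA with oligo-dT. In the first group, embryos received 10 µM SR1848, which inhibits NR5A2, a nuclear receptor, together with 500 ng/µl NR5A2 mRNA (27 libraries in experiment 1 and 40 in experiment 2). The second group received SR1848 at the same concentration without mRNA (17 and 24 libraries), and the vehicle group received 0.1% DMSO (19 and 10 libraries). All zygotes were cultured in KSOM medium in wet chambers without oil, and treatment began 6 h after fertilization. There was no group with a control mRNA, so that the injection and the NR5A2 it delivered cannot be told apart. Each library is 1 embryo, the parents were not recorded, and p-values measure the spread between embryos.

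Ribosomal proteins assemble with ribosomal RNA in the nucleolus and are exported to the cytoplasm as large and small subunits. Their messenger RNAs are among the most abundant of most growing cells, and many begin with a run of pyrimidines, the terminal oligopyrimidine tract, that couples their translation to nutrient signalling through mTOR. In the mouse, oocyte transcripts are degraded around the first cleavage while the embryo's own genome becomes active, so that ribosomal protein mRNA at the 2-cell stage can be of either origin.

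Some libraries went against their labels. The 8 libraries labelled DMSO 1 to 8 of experiment 2 held 88.9 to 5474 CPM (a library's counts scaled to a common total of gene-paired counts) for Nr5a2 and 47.7 to 7179 CPM for the deposited GFP entry. The 8 libraries labelled NR5A2 mRNA 1 to 8 of experiment 2 held 82.0 to 156 CPM for Nr5a2 and at most 0.456 CPM for GFP. Without these 16 libraries, and without 7 libraries of low depth or few detected genes, Nr5a2 had a median of 3126 CPM with NR5A2 mRNA, 13.3 CPM with SR1848 and 111 CPM with DMSO. Among the 56 NR5A2 mRNA libraries left, 9 did not exceed the highest SR1848 library, at 29.7 CPM, 6 of them in experiment 1 and 3 in experiment 2. These 9 held 5.50 to 24.6 CPM for Nr5a2 and 0 to 18.8 CPM for GFP, against 0 to 3.25 CPM for GFP in the 40 SR1848 libraries, so that their level of Nr5a2 goes against their label. Results are given as labelled, and again without the 16 and, where it matters, without the 7. The counts for NR5A2 mRNA are also given without the 16, the 7 and the 9, a setting chosen after the data were seen. The other 114 libraries held 3348280 to 9250320 gene-paired counts each and 892 to 158169 counts on the members. In 113 of them between 74 and 83 members had a count. The remaining 1, an NR5A2 mRNA library of experiment 1, had 32.

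RefSeq start sites (GRCm38.p6, 250 bases before to 50 after each start) were matched by symbol for 61 of the 83 members. A pyrimidine run was searched within 25 bases on either side of the start, on the gene's strand, as a C followed by at least 7 further C or T. It was present in 33 of the 61 members (54.1%), against 17.7% of all 27025 genes with an entry. The share was 57.9% for the large subunit and 47.8% for the small subunit. The following windows of 60 bases are centred on the start site, with the run in capitals. Rps27 is shown because it had the lowest fold change of the small subunit in SR1848 against DMSO embryos. Rps27l is shown because it did not follow its relative Rps27, and Rps6 because it is the classical phosphorylated ribosomal protein. Rpl24, a strongly reduced gene, is shown because no such run was found in the bases searched. Rplp0 is shown because none was found there either and it did not pass the test. The starts are annotated and were not measured in these embryos, so a run farther from the annotated start would be missed.
Rps27 chr3:90213619-90213678, minus strand: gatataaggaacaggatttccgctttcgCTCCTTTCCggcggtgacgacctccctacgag
Rps27l chr9:66946056-66946115, plus strand: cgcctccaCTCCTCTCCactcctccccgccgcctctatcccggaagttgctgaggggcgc
Rps6 chr4:86857338-86857397, minus strand: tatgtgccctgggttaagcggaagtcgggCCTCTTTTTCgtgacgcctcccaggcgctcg
Rpl24 chr16:55966245-55966304, plus strand: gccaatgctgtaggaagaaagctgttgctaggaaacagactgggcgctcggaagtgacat
Rplp0 chr5:115559437-115559496, plus strand: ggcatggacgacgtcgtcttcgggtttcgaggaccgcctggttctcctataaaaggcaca

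The run of Rps27 begins 2 bases before the start site and that of Rps6 begins 1 base before it. The run of Rps27l lies farther upstream, with its first base 22 bases before the annotated start. The letters AAGGTCA, the core recognised by NR5A2 and related nuclear receptors, were searched on both strands over the whole 300 bases and could overlap other motifs. They were present in 5 of the 61 members (8.2%), against 5.38% of all genes. The members were Rpl10l, Rpl24, Rpl35a, Rpl3l and Rps3. All 5 fell in SR1848 against DMSO, where 68 of 81 members tested and 36.0% of all genes fell. The sites of Rpl35a and Rps3 are shown as an example from each subunit, with the motif, here in its complement, in capitals.
Rpl35a chr16:33056378-33056408, plus strand: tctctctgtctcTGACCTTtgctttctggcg
Rps3 chr7:99483900-99483930, minus strand: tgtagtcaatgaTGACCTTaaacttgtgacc

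A match of letters is a description of the sequence, and binding was not measured. The letters TATAA within 50 bases before the start were found in 6.56% of the members and in 5.89% of all genes. All 4 members that held them there belonged to the small subunit, Rps27 among them. Bases after the annotated start were not searched. The letters occur within 30 bases after it in the large-subunit members Rplp0, Rpl10 and Rpl36a and the small-subunit member Rps2. The finding in the small subunit therefore depends on the annotated start.

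The summed ribosomal protein mRNA took a smaller part of the library in SR1848 embryos than in DMSO embryos. In experiment 1, without the 7 low libraries, members held 0.165%, 0.264% and 0.756% of the counts (lowest, median and highest of 16 SR1848 embryos), against 1.07%, 1.41% and 1.94% in 16 DMSO embryos. In experiment 2 they held 0.183%, 0.315% and 0.708% in 24 SR1848 embryos, against 1.16% and 1.40% in the 2 remaining DMSO embryos. No SR1848 embryo of either experiment reached the lowest DMSO embryo of its experiment. The difference of the mean log2 share was -1.12 over all libraries as labelled and -2.14 without the 16 and the low libraries. It was -2.01 in experiment 1 and -0.24 in experiment 2 as labelled, and -1.91 in experiment 2 without the 16. Each value is a part of a whole, so a lower share and a larger amount of other RNA cannot be told apart.

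**Figure D1:**
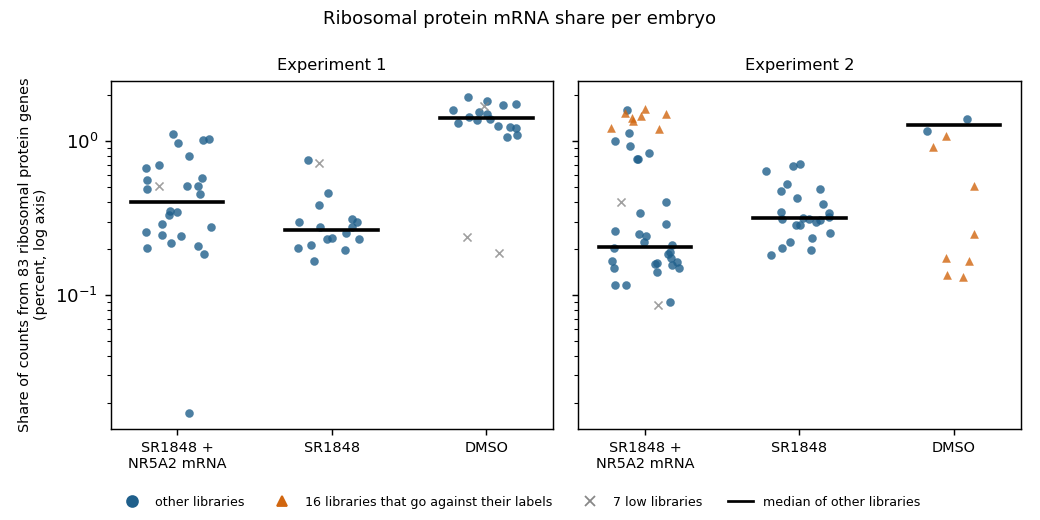
Share of gene-paired counts on the 83 ribosomal protein genes in each embryo (percent, log axis), by group and experiment; points are embryos, triangles the 16 libraries that go against their labels, crosses the 7 low libraries, and bars the median of the others. SR1848 embryos outside these sets lie at or below 0.756% and the DMSO embryos marked as other libraries lie at or above 1.07%, with NR5A2 mRNA embryos spread between 0.0172% and 1.60%.

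Embryos that also received NR5A2 mRNA had a wider range of shares. They held 0.0172%, 0.401% and 1.11% in 26 embryos of experiment 1, and 0.0896%, 0.206% and 1.60% in 30 embryos of experiment 2. The lowest value of experiment 1 came from 1 of the 9 embryos with low Nr5a2. Without these 9 the values were 0.183%, 0.340% and 1.11% in 20 embryos of experiment 1. They were 0.0896%, 0.189% and 1.13% in 27 embryos of experiment 2. In experiment 1, 5 of 26 lay above the highest SR1848 embryo and 8 lay below the SR1848 median. In experiment 2, 7 of 30 lay above the highest SR1848 embryo, 21 lay below the SR1848 median and 12 lay below the lowest SR1848 embryo. A single embryo in each experiment reached the lowest DMSO embryo. The 9 embryos with low Nr5a2 were 2 of the 5 above the highest SR1848 embryo in experiment 1 and 3 of the 7 in experiment 2. They held 0.0172%, 0.765% and 1.60% (lowest, median and highest), and the other 47 held 0.0896%, 0.246% and 1.13%. The difference of the mean log2 share, SR1848 with NR5A2 mRNA minus SR1848, was 0.26 as labelled, 0.069 without the 16 and the low libraries and -0.036 when the 9 were left out too. It was 0.38 in experiment 1, and -0.35 in experiment 2 without the 16, so the direction of the pooled share differed between the experiments.

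The 16 libraries had the reverse pattern of their labels. The 8 labelled DMSO held 0.131%, 0.212% and 1.08% of their counts on the members, and the 8 labelled NR5A2 mRNA held 1.19%, 1.43% and 1.62%.

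Transcripts of maternal genes also differed between the groups. A list of 45 oocyte genes took a median of 2.01% of the counts with NR5A2 mRNA, 2.67% with SR1848 and 0.743% with DMSO in experiment 1. In experiment 2, without the 16 and the low libraries, it took 1.95% with NR5A2 mRNA, 2.95% with SR1848 and 0.703% with DMSO. When libraries were scaled to this list, which left out 2 libraries, the median log2 fold change of all genes in SR1848 against DMSO moved to -1.44, against -0.05 with TMM, edgeR's trimmed mean scaling. Changes below use TMM, and the part of maternal transcripts in them was not tested.

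Large-subunit mRNA was more in excess over small-subunit mRNA in SR1848 embryos than in DMSO embryos. The log2 ratio of summed large-subunit to small-subunit counts was 0.41, 1.11 and 1.73 in SR1848 embryos (lowest, median and highest, experiment 1), against 0.33, 0.52 and 0.80 in DMSO embryos. In experiment 2 the median was 1.15 with SR1848, against 0.61 and 0.68 in the 2 DMSO embryos. The ratio lay above the highest DMSO embryo in 11 of 16 SR1848 embryos of experiment 1 and 22 of 24 of experiment 2. With NR5A2 mRNA the median was 1.02 in experiment 1 and 0.99 in experiment 2. The mean ratio, SR1848 minus DMSO, differed by 0.28 as labelled and by 0.48 without the 16 and the low libraries. When counts of named pseudogenes were added to their parent genes, it differed by 0.19 as labelled. It differed by 0.12 as labelled when Rplp0, Rpl17, Rpl41 and Rps27l, chosen after their values were seen, were left out. Without these 4 genes the medians were 0.63 with SR1848 and 0.09 with DMSO in experiment 1, and 0.55 with SR1848 and 0.26 with DMSO in experiment 2.

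**Figure D2:**
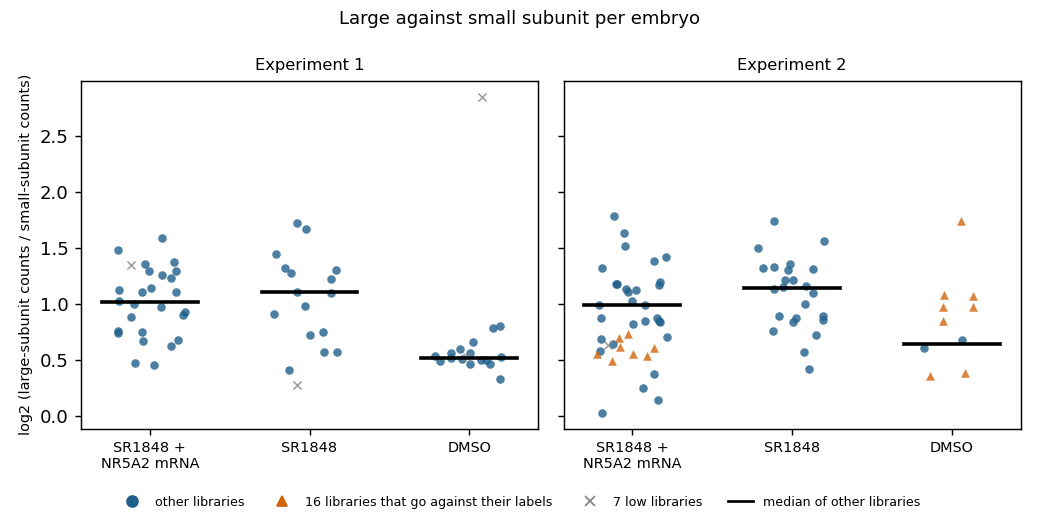
Log2 ratio of counts on large-subunit genes to counts on small-subunit genes per embryo, by group and experiment, with symbols for the 16 and the 7 libraries and median bars for the others. DMSO embryos of experiment 1 lie between 0.33 and 0.80, and 11 of 16 SR1848 embryos lie above them; 2 low libraries with no small-subunit count are not drawn.

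Gene by gene, SR1848 against DMSO was tested with edgeR's quasi-likelihood test over 14507 genes, with experiment as a term and a Benjamini-Hochberg adjusted p under 0.05 as the threshold. Of 81 members tested, 68 fell, 2 rose and 11 did not pass, where 36.0% of all genes tested fell and 33.1% rose. The median log2 fold change of the tested members was -2.37, against -0.05 for all genes. Without the 16 libraries 69 fell, against 32.7% of all genes, and without the 16 and the low libraries 75 fell, against 39.0% of all genes, with a median of -2.88. Rpl32l and Rpl6l were not tested for low counts and did not exceed 2.51 and 3.03 CPM in any library.

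Most members of each subunit fell. Of 49 large-subunit members 41 fell and 1 rose, with a median log2 fold change of -2.23 and a range of -4.48 to 0.82. Of 32 small-subunit members 27 fell and 1 rose, with a median of -2.57 and a range of -4.76 to 0.52. In experiment 1 without the low libraries, all 16 SR1848 embryos lay below all 16 DMSO embryos for 57 of the 81 members, 31 large and 26 small, where 16.9% of all genes had this pattern. No member had the opposite pattern, and the share of all genes with that pattern was not counted.

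**Figure D3:**
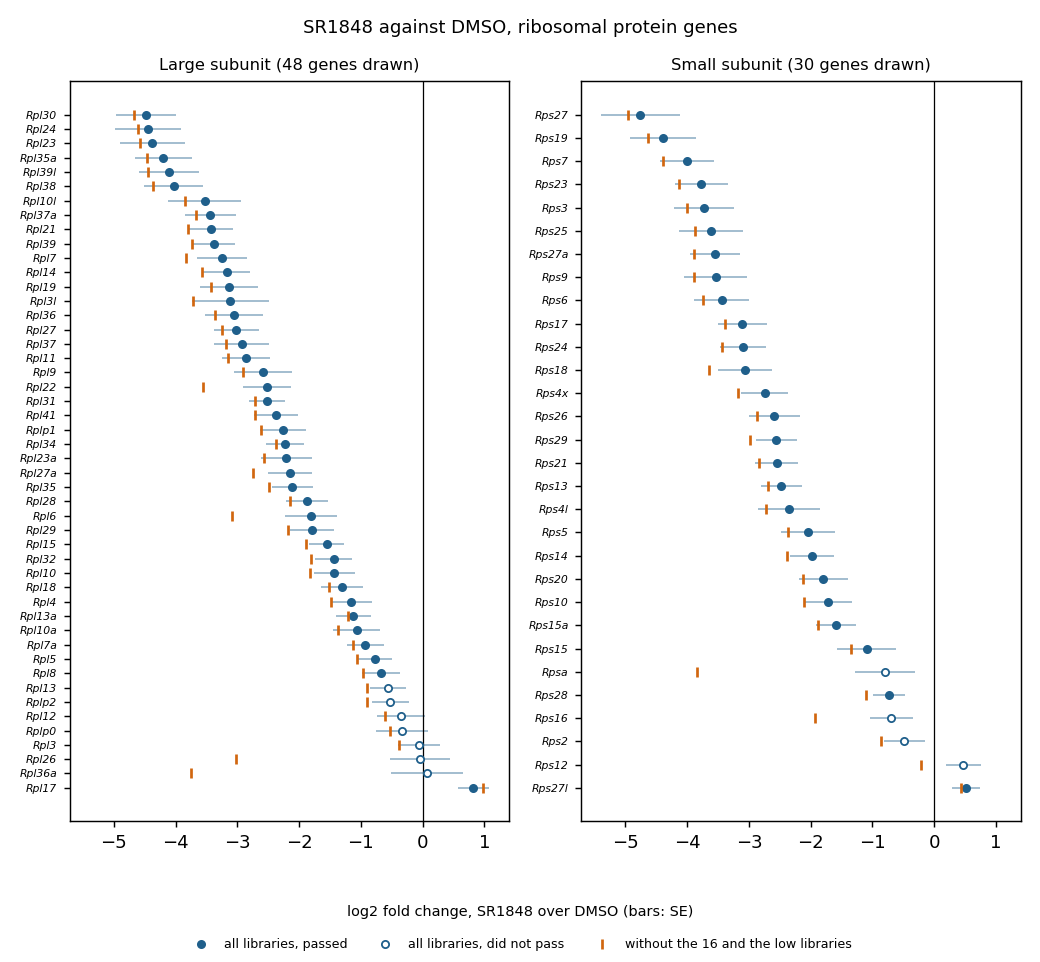
Log2 fold change of SR1848 over DMSO for tested members of the large and the small subunit; points are the fit of all libraries with SE bars, filled where the adjusted p is under 0.05, and ticks are the fit without the 16 and the low libraries. Most points lie between -5 and -1, and Rpl17 and Rps27l are the filled points above 0.

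Rps27, a zinc-finger protein of the small subunit, had the lowest fold change of the small-subunit members. Its gene lies at chr3:90212522-90213651 on the minus strand of GRCm38. It had 0, 0.709 and 22.7 CPM in SR1848 embryos of experiment 1 (lowest, median and highest), against 53.2, 110 and 197 CPM in DMSO embryos. The groups did not overlap, and 2 of the 16 SR1848 embryos had no Rps27 count. Experiment 2 gave 0, 2.08 and 23.1 CPM in SR1848 embryos, against 75.6 and 93.3 CPM in the 2 DMSO embryos. The log2 fold change over all libraries was -4.76 ± 0.63 (SE; edgeR's quasi-likelihood test, adjusted p = 9.99e-11).

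Rps19, the gene most often mutated in Diamond-Blackfan anaemia in humans, had 1.40, 3.13 and 28.2 CPM in SR1848 embryos, against 130, 231 and 329 CPM in DMSO embryos of experiment 1. These ranges were also apart, and its log2 fold change was -4.39 ± 0.53. Rps7 and Rps23, also among the most reduced small-subunit members, had log2 fold changes of -4.00 and -3.77. Rps23 is a protein of the decoding centre, and its 16 SR1848 embryos, at 0.204 to 17.6 CPM, lay below the 16 DMSO embryos, at 76.8 to 150 CPM.

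Rpl30, at chr15:34440505-34443640 on the minus strand of GRCm38, had the lowest fold change of the large subunit. It had 0, 1.93 and 9.38 CPM in SR1848 embryos, against 45.9, 99.8 and 182 CPM in DMSO embryos of experiment 1, and the log2 fold change was -4.48 ± 0.48. Experiment 2 gave 0.199, 2.58 and 21.1 CPM in SR1848 embryos, against 89.4 and 107 CPM in the 2 DMSO embryos. Rpl24, which forms a bridge to the small subunit, had 1.86, 4.84 and 46.7 CPM in SR1848 embryos, against 176, 289 and 406 CPM in DMSO embryos of experiment 1. The ranges of both genes were separate in each experiment. Rpl23, at the face of the large subunit that meets the small one, and Rpl35a, another Diamond-Blackfan gene, fell by 4.38 and 4.20 on the log2 scale. Rpl39l fell by 4.11.

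Members with roles beyond the core of the ribosome fell to different degrees. Rpl5 and Rpl11 form a particle with a small ribosomal RNA that can bind the p53 regulator Mdm2. Rpl11 had 4.33, 8.01 and 20.1 CPM in SR1848 embryos, against 75.2, 122 and 181 CPM in DMSO embryos of experiment 1. Rpl5 had 1.15, 5.08 and 11.9 CPM in SR1848 embryos, against 7.93, 11.0 and 29.7 CPM in DMSO embryos. Rpl11 thus had groups that were apart and Rpl5 groups that overlapped, and the log2 fold change was -2.86 ± 0.39 for Rpl11 and -0.77 ± 0.27 for Rpl5. Rps6, the substrate of the S6 kinases, had 1.52, 13.5 and 136 CPM in SR1848 embryos, against 247, 381 and 554 CPM in DMSO embryos. Its ranges did not overlap, and it fell by 3.44. Rpl38, needed for translation of Hox mRNAs in the mouse embryo, had 0, 1.317 and 12.0 CPM in SR1848 embryos, against 22.6, 70.0 and 96.1 CPM in DMSO embryos, and fell by 4.03. Rps27a, made as a fusion with ubiquitin, fell by 3.55, Rps3, near the mRNA entry site, by 3.72, and Rpl10, a late-joining protein of the large subunit, by 1.43.

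The stalk proteins, which recruit the translational GTPases, differed among themselves. Rplp1 fell by 2.26 on the log2 scale. Its partner Rplp2 had a log2 fold change of -0.53 and the stalk base Rplp0 one of -0.33, neither past the threshold as labelled. Rplp0 lies at chr5:115559467-115563727 on the plus strand of GRCm38. It had 195, 535 and 1715 CPM in SR1848 embryos, against 762, 1285 and 2404 CPM in DMSO embryos of experiment 1. In experiment 2 it had 162, 699 and 2580 CPM in SR1848 embryos, against 803 and 910 CPM in the 2 DMSO embryos, so that its ranges overlapped in both experiments. Rpl3, at the peptidyl transferase centre, had 9.09, 32.8 and 131 CPM in SR1848 embryos, against 22.0, 50.6 and 127 CPM in DMSO embryos of experiment 1. Its log2 fold change was -0.06 ± 0.34. The 11 members that did not pass as labelled were Rpl3, Rpl12, Rpl13, Rpl26, Rpl36a, Rplp0, Rplp2, Rps2, Rps12, Rps16 and Rpsa.

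A single library held most of the SR1848 signal of some of these 11. The low library SR1848 8 of experiment 1 had 1276 CPM for Rpl36a, which was 90.9% of the summed CPM of this gene over the SR1848 group, and the next highest SR1848 library had 24.4 CPM. It had 1766 CPM for Rpsa, also known as the laminin receptor, or 82.5% of the group's sum, and 1631 CPM for Rpl26, or 81.1%. Without the 16 and the low libraries the log2 fold changes of Rpl36a, Rpsa and Rpl26 were -3.76, -3.85 and -3.02, against 0.07, -0.79 and -0.04 as labelled. Rps16 moved to -1.92, against -0.70 as labelled. Rpsa, Rpl36a, Rpl26 and Rps16 all passed the threshold once those libraries were left out, and Rps12, at -0.21, did not. In that setting 4 of the 81 members did not pass, 3 of the large subunit and 1, Rps12, of the small subunit.

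The 2 members that rose were Rpl17 and Rps27l. Rpl17, a protein at the exit tunnel, had 143, 212 and 382 CPM in SR1848 embryos, against 71.8, 118 and 172 CPM in DMSO embryos of experiment 1. In experiment 2 it had 106, 248 and 385 CPM in SR1848 embryos, against 111 and 112 CPM in the 2 DMSO embryos. The ranges overlapped in both experiments, with the SR1848 median above the highest DMSO embryo in each. The log2 fold change over all libraries was 0.82 ± 0.25 (edgeR's quasi-likelihood test, adjusted p = 0.00259). Rpl17 did not pass in either experiment alone, nor in experiment 2 without the 16. Rps27l, a relative of Rps27 induced by p53 in other cells, lies at chr9:66946086-66949516 on the plus strand of GRCm38. It had 132, 357 and 468 CPM in SR1848 embryos, against 151, 251 and 413 CPM in DMSO embryos, with a log2 fold change of 0.52 ± 0.22 (adjusted p = 0.0323, edgeR's quasi-likelihood test). Rps27l did not pass in either experiment alone, with relative log expression or total count scaling, with no filter on low counts or with DESeq2, where its log2 fold change lay between 0.36 and 0.54. With libraries scaled to the maternal list these values turned round, to -0.89 for Rpl17 and -1.36 for Rps27l.

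Beside a close relative, most members moved the same way. Rpl39, which lines the exit tunnel, fell by 3.38 and Rpl39l by 4.11 on the log2 scale. Rpl10 fell by 1.43 and Rpl10l, its germ-cell relative in the mouse, by 3.53. Rps4x fell by 2.74 and Rps4l by 2.35, Rpl22 by 2.52 and Rpl22l1 by 1.87, and Rpl7 by 3.25 and Rpl7l1 by 5.20. Rpl36al fell by 2.82, and Rpl36a, at 0.07 as labelled, was at -3.76 without the 16 and the low libraries. The other 2 pairs split. Rps27l rose whereas Rps27 fell, and Rpl3l fell by 3.11 beside the unpassed Rpl3. Reads of such relatives can be shared by the counting, so each split is uncertain. Counts of named pseudogenes came to 3.68% of members and pseudogenes together. The share differed by gene, at 32.6% for Rps23, 29.4% for Rps12 and 23.1% for Rpl3, and 0 for Rps27l and Rpl41. Adding each to its parent gave 70 members that fell and 3 that rose, where 5216 and 4791 of 14483 genes did so. In the small subunit 2 then rose, with a highest log2 fold change of 1.09, against 1 and 0.52 without pseudogene counts.

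The members did not keep their proportions within the pool. In experiment 1 Rplp0 took a median of 22.2% of all member counts in SR1848 embryos, against 8.30% in DMSO embryos. Rps27l took 12.0% in SR1848 embryos, against 1.70% in DMSO embryos, and Rpl17 took 8.61%, against 0.803%. Rpl41, a very short peptide of the large subunit, took 3.80% in SR1848 embryos, against 8.65% in DMSO embryos. Together these 4 genes took 38.2% of the pool with NR5A2 mRNA, 47.8% with SR1848 and 20.3% with DMSO. In experiment 2 they took 42.6% with NR5A2 mRNA, 46.2% with SR1848 and 18.7% with DMSO. They were singled out after their values were seen.

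Levels between genes were compared per length, as TPM (transcript abundance scaled to a common total) computed from the deposited counts and GENCODE transcript lengths. Rpl41 ranked first in DMSO embryos of experiment 1, with a median of 3839 TPM, followed by Rplp0 with 1746 TPM, and Rps27l had rank 5 with 854 TPM. In SR1848 embryos Rps27l ranked first with a median of 1323 TPM, followed by Rplp0 with 835 TPM and Rpl41 with 344 TPM. Rpl17 had rank 4 among the 83 in SR1848 embryos with 295 TPM, and rank 56 in DMSO embryos with 234 TPM. Rps27 had rank 78 in SR1848 embryos with 3.68 TPM, and rank 21 in DMSO embryos with 533 TPM. At the low end in DMSO embryos stood Rpl6l with a median of 0 TPM, Rpl32l with 0.333 TPM and Rpl12 with 8.05 TPM in the large subunit, and Rps12 with 72.1 TPM and Rps20 with 102 TPM in the small one.

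Embryos differed more from one another with SR1848. Over 79 members with a mean of at least 10 CPM in DMSO embryos of experiment 1, the coefficient of variation between embryos had a median of 80.9% (29.2% to 327%) in SR1848 embryos, against 25.7% (17.7% to 47.7%) in DMSO embryos. Lower counts carry more sampling error, and its part in this spread was not tested.

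Embryos given NR5A2 mRNA with SR1848 had higher fitted levels of most members than embryos given SR1848 alone. Of 81 members 57 rose and 2 fell by edgeR's quasi-likelihood test, where 29.5% of all genes tested rose and 12.9% fell, and the median log2 fold change was 1.28, against 0.09 for all genes. In the large subunit 35 of 49 rose and 2 fell, with a median of 1.18. In the small subunit 22 of 32 rose, with a median of 1.31, and 0 fell, also at an unadjusted p under 0.05 and with DESeq2. In that subunit Rpsa fell in experiment 1 alone, Rps12 with pseudogene counts added, and Rps28 without the 16 and the low libraries. These values depended on the 16 libraries, and without them 38 members rose, against 21.8% of all genes, and the median was 0.58. All 38 were among the 57. Without the 16 and the low libraries 49 rose, against 29.8% of all genes, with a median of 0.73. With the 9 embryos of low Nr5a2 left out as well, 40 rose, against 28.6% of all genes, with a median of 0.52. In that setting 4 fell, against 15.3% of all genes, and these were Rpl3, Rplp0, Rplp2 and Rps28. This comparison shares its SR1848 libraries with the comparison to DMSO, so both move if those libraries move.

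**Figure D4:**
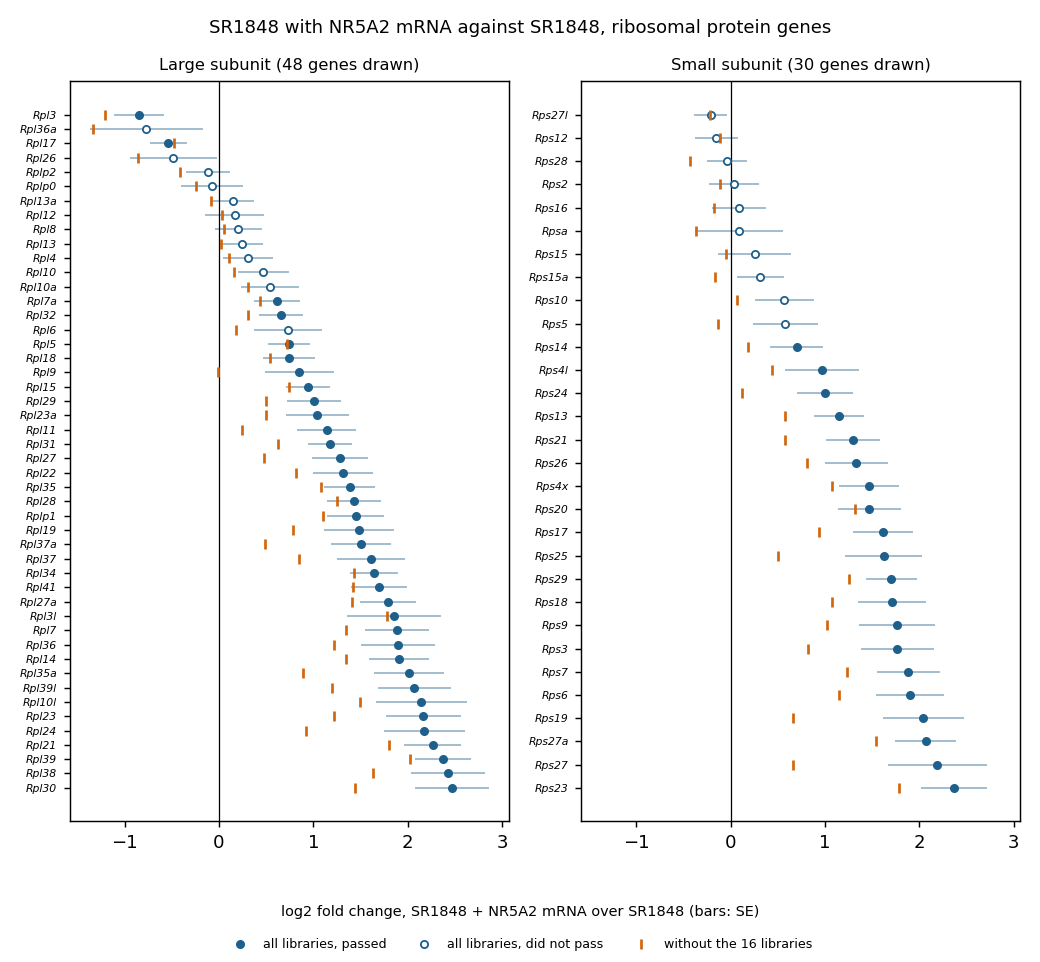
Log2 fold change of SR1848 with NR5A2 mRNA over SR1848 for tested members of each subunit, as points with SE bars for all libraries (filled where the adjusted p is under 0.05) and ticks for the fit without the 16 libraries. Most ticks lie left of their points, and Rpl3 and Rpl17 are the filled points below 0.

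Rpl30 had 0, 8.43 and 46.2 CPM with NR5A2 mRNA in experiment 1, against 0, 1.93 and 9.38 CPM with SR1848 alone. In experiment 2 it had 0.667, 4.23 and 36.9 CPM with NR5A2 mRNA, against 0.199, 2.58 and 21.1 CPM with SR1848. The groups overlapped widely, with a higher median and upper end in the NR5A2 mRNA embryos, and the log2 fold change was 2.47 ± 0.39 as labelled and 1.44 without the 16. Rpl39 had 0, 27.0 and 115 CPM with NR5A2 mRNA in experiment 1, against 1.39, 4.05 and 37.3 CPM with SR1848. The values in experiment 2 were 1.88, 13.4 and 100.2 CPM with NR5A2 mRNA, against 2.33, 6.67 and 20.6 CPM with SR1848. Its log2 fold change of 2.37 ± 0.30 was 2.02 without the 16.

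Rpl21 rose by 2.26, Rpl38 by 2.43 and Rpl24 by 2.18 on the log2 scale, and without the 16 by 1.80, 1.63 and 0.93. Rps23 led the small subunit. It had 0, 17.6 and 70.7 CPM with NR5A2 mRNA in experiment 1, against 0.204, 2.86 and 17.6 CPM with SR1848, and its log2 fold change was 2.37 ± 0.35 as labelled and 1.78 without the 16. Rps27a rose by 2.07 and Rps6 by 1.90, and both passed without the 16, at 1.54 and 1.15.

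Other members depended on the 16 libraries. Rps27 had a log2 fold change of 2.19 as labelled and 0.66 without the 16, and Rps19 had 2.04 and 0.66, and neither passed without the 16. In experiment 2 Rps27 had 0, 1.69 and 34.6 CPM with NR5A2 mRNA, against 0, 2.08 and 23.1 CPM with SR1848, so that the NR5A2 mRNA median was the lower one. Rpl11 had a log2 fold change of 1.14 as labelled and 0.24 without the 16.

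Medians over embryos differed between the experiments. In experiment 1, without the low libraries, the median was higher with NR5A2 mRNA than with SR1848 for 73 of 83 members and lower for 8. In experiment 2, without the 16 and the low libraries, it was higher for 37 and lower for 45. The fitted values follow group means, and these medians do not.

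Rpl3 and Rpl17 fell. Rpl3 had 0, 19.3 and 74.6 CPM with NR5A2 mRNA in experiment 1, against 9.09, 32.8 and 131 CPM with SR1848. In experiment 2 it had 1.318, 9.64 and 96.5 CPM with NR5A2 mRNA, against 13.9, 31.8 and 74.9 CPM with SR1848. The NR5A2 mRNA median was the lower one in both experiments, and the log2 fold change was -0.85 ± 0.27 (edgeR's quasi-likelihood test, adjusted p = 0.00583). Rpl17 had a log2 fold change of -0.54 ± 0.20, and it did not pass without the 16 libraries, at -0.48. With libraries scaled to the maternal list the directions turned, to 0.24 for Rpl3 and 0.19 for Rpl17, and neither passed.

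Against DMSO, embryos with SR1848 and NR5A2 mRNA remained lower for most members. As labelled 59 of 81 fell and 0 rose by edgeR's quasi-likelihood test, and 0 rose at an unadjusted p under 0.05 or with DESeq2, where 25.8% of all genes fell, and the median log2 fold change was -1.21, against 0.22 for all genes. Without the 16 libraries 69 fell, against 29.8% of all genes, with a median of -1.82, and without the 16, the low and the 9 embryos of low Nr5a2 76 fell, against 35.6%. Rps27 had -2.56 as labelled and -4.04 without the 16. Rps19 had -2.35 and -3.67, and Rpl24 had -2.27 and -3.44. Rpl5, by contrast, had -0.02 as labelled and -0.06 without the 16, and passed in neither. In experiment 2 as labelled, where 8 of 10 DMSO libraries went against their labels, 0 of 81 members and 0 of 15266 genes passed in this comparison by edgeR's quasi-likelihood test, and 0 members and 349 genes had an unadjusted p under 0.05.

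The difference between the experiments was tested as an interaction. For SR1848 against DMSO it passed for 19 of 81 members, where 30.3% of all genes passed, and the median of experiment 2 minus experiment 1 was 1.51 on the log2 scale. Without the 16 libraries it passed for 1 member, with a median of 0.27, and the share of all genes was not counted. Without the 16 and the low libraries it passed for 0 of the 81 by edgeR's quasi-likelihood test. At an unadjusted p under 0.05 there were also 0 members, and 785 of 15107 genes. For SR1848 with NR5A2 mRNA against SR1848 it passed for Rpl36a, Rpl26 and Rpsa, against 4.58% of all genes. These are the 3 genes with the high values in the low library SR1848 8, and without the low libraries it passed for 0 of the 81. In that setting 5 of the 81 members and 2214 of 14674 genes had an unadjusted p under 0.05.

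Genes of ribosome assembly were lower in the same embryos. Of 25 assembly factors of the large subunit 24 fell and 1 rose in SR1848 against DMSO, with a median log2 fold change of -2.92, against -0.05 for all genes. Over all genes 36.0% fell and 33.1% rose. They included the nucleolar GTPase Gnl3, at -3.00, and the export adaptor Nmd3, at -2.92. Of 25 assembly factors of the small subunit 22 fell and 1 rose, with a median of -2.18, Pno1 at -5.36 and Tsr1 at -3.33 among them. Of 10 chaperones of single ribosomal proteins and related factors 7 fell and 1 rose, with a median of -2.96. Tsr2, the escort of Rps26, had a log2 fold change of -7.83, and Znhit3, an assembly factor of small nucleolar ribonucleoproteins, had -4.85. Ribosomal proteins outside the naming rule fell in 6 of 6 cases, with a median of -2.12.

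Other genes whose mRNAs carry the terminal pyrimidine tract were mixed. Of 20 such genes, most of them translation factors, 11 fell and 4 rose in SR1848 against DMSO, where 36.0% of all genes fell and 33.1% rose, with a median log2 fold change of -1.41. Eif3e, a subunit of an initiation factor, had -4.23, and the nucleic acid binding protein Cnbp had -4.76. Of 12 genes that control these mRNAs, the mTOR pathway and its targets, 6 fell and 3 rose, with a median of -0.98, and the 3 that rose are a share below that of all genes. Eif4ebp1, a repressor of cap-dependent translation, fell by 2.10 and the kinase Rps6kb2 by 2.32.

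With NR5A2 mRNA against SR1848 alone, 20 of the 25 large-subunit assembly factors rose and 1 fell as labelled, and 13 rose and 2 fell without the 16 libraries. Over all genes 29.5% rose and 12.9% fell as labelled, and 21.8% rose and 12.4% fell without the 16. Of the small-subunit assembly factors 13 rose as labelled, and 8 rose and 2 fell without the 16. Of the 10 chaperones 7 rose and 1 fell as labelled, and 3 rose and 1 fell without the 16. Of the ribosomal proteins outside the naming rule 6 of 6 rose as labelled and 4 rose without the 16. Of the 20 other genes with the tract 5 rose and 4 fell as labelled, and 3 rose and 8 fell without the 16. Of the 12 control genes 1 rose in either setting. The counts that rose among the other genes with the tract and the control genes were near or below the share of all genes. The median log2 fold change as labelled was 1.44 for the large-subunit assembly factors, 0.63 for the small-subunit ones, 1.14 for the chaperones and 1.25 for the ribosomal proteins outside the rule. It was 0.05 for the other genes with the tract and 0.20 for the control genes, against 0.09 for all genes.

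Transcripts annotated as retaining an intron took a larger part of the members' counts in embryos with NR5A2 mRNA. The members have 488 annotated transcripts in the deposited table, 226 of them protein-coding and 172 of the retained-intron class. This class held a median of 5.61% of member counts with NR5A2 mRNA, 3.06% with SR1848 and 3.11% with DMSO in experiment 1. In experiment 2 it held 5.94% with NR5A2 mRNA, 3.54% with SR1848 and 3.66% with DMSO, without the 16 and the low libraries. Over all other protein-coding genes the medians in experiment 1 were 3.57% with NR5A2 mRNA, 2.65% with SR1848 and 3.87% with DMSO. In experiment 2 they were 3.95% with NR5A2 mRNA, 2.42% with SR1848 and 3.58% with DMSO. SR1848 embryos were thus the lowest group outside the members, whereas within the members SR1848 and DMSO embryos were close. The 8 libraries labelled DMSO that went against their label had a median of 6.15%, and the 8 labelled NR5A2 mRNA had 3.80%.

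**Figure D5:**
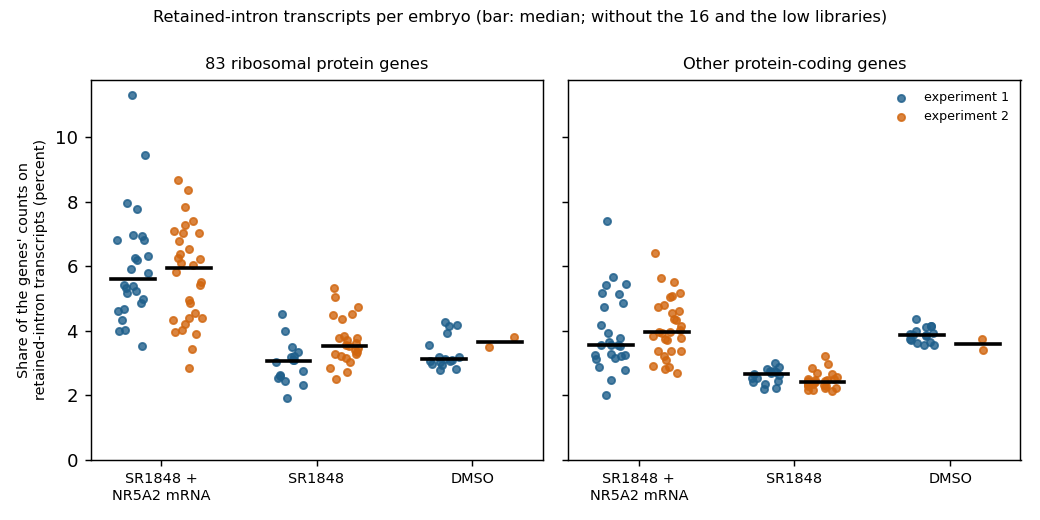
Share of counts on transcripts annotated as retaining an intron, per embryo, for the 83 ribosomal protein genes and for other protein-coding genes, by group and experiment, without the 16 and the low libraries; bars are medians. For the members, medians were 5.61% and 5.94% with NR5A2 mRNA and between 3.06% and 3.66% with SR1848 or DMSO.

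For single members the share was taken over the summed counts of a group. Of 62 members with such a transcript it was higher with NR5A2 mRNA than with SR1848 for 47 in experiment 1 and 48 in experiment 2. Of 7452 other protein-coding genes with such a transcript it was higher for 69.4% in experiment 1 and 70.9% in experiment 2, near the share of the members. Rps12 had a high share in both groups that received SR1848. The class took 62.9% of its counts with NR5A2 mRNA and 55.6% with SR1848, against 8.89% with DMSO, in experiment 1. In experiment 2 it took 67.5% with NR5A2 mRNA and 69.1% with SR1848, against 7.59% with DMSO. The total counts of Rps12 did not pass the test in SR1848 against DMSO. For Rpl10 it took 10.1% with NR5A2 mRNA, 4.00% with SR1848 and 2.60% with DMSO in experiment 1. The pseudo-aligner divides reads among overlapping transcripts of one gene without strand, so these shares are estimates of the authors' quantification.

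Most markers of other cells were low. A list of 16 cumulus and granulosa cell genes took a median of 0.00343% of the counts with NR5A2 mRNA, 0.00210% with SR1848 and 0.00971% with DMSO, and 6 of its genes were at a median of 0 with NR5A2 mRNA, 7 with SR1848 and 7 with DMSO. A list of 10 sperm genes took 0.000698% with NR5A2 mRNA, 0.000648% with SR1848 and 0.00255% with DMSO, and 6 genes were at 0 with NR5A2 mRNA, 6 with SR1848 and 7 with DMSO. A list of 8 blood and epithelial genes took 0.0190% with NR5A2 mRNA, 0.00275% with SR1848 and 0.00153% with DMSO, and 5 genes were at 0 with NR5A2 mRNA, 6 with SR1848 and 6 with DMSO. A few genes had higher medians. Hba-a1 had 55.3 CPM with NR5A2 mRNA, 8.89 CPM with SR1848 and 5.48 CPM with DMSO. Hba-a2 had 128.5 CPM with NR5A2 mRNA, 15.4 CPM with SR1848 and 9.61 CPM with DMSO. Amhr2 had 6.08 CPM with NR5A2 mRNA, 0.0983 CPM with SR1848 and 87.7 CPM with DMSO. The part of these lists in the results was not tested.

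The authors' deposited table compares the NR5A2 mRNA group with SR1848 per transcript, and 405 of the 488 member transcripts had an adjusted p in it. Of these, 111 in the authors' deposited table had a positive fold change and 14 a negative one at an adjusted p under 0.05. By the authors' deposited table, members with a transcript called positive numbered 58, those with one called negative 11, and those with both 8.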

How the data were processed

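Single 2-cell embryos were profiled by SmartSeq2. Per the submitters' processing notes, the authors used bcl2fastq, Trim Galore 0.6.2, kallisto 0.46.1, R 3.5.1 and DESeq2 1.32.0, with the builds mm10 and hg19 listed; what hg19 was used for was not given in the sources used here. Then the authors deposited expected counts per transcript, which need not be whole (26.3% of values were not), and a table of their own comparison with log2 fold changes and adjusted p-values.

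Of 119358 entries, 116682 were paired with a gene through GENCODE M21 and 892 more through the authors' deposited table; 1779 were not paired (0.656% of counts), and 5 were not mouse genes (0.158%). Counts were summed by symbol. edgeR 4.0.16 (R 4.3.3) was used with TMM scaling, a filter on low counts (filterByExpr), group and experiment as terms, and the quasi-likelihood test with Benjamini-Hochberg adjustment over 14507 genes at 0.05. The SE is the absolute log2 fold change over the root of F. DESeq2 1.42.0 on rounded counts, other scalings, no filter, a replicate block, single experiments and sets of libraries left out were alternatives. NR5A2 mRNA libraries of low Nr5a2 were left out only in a setting added after the data were seen. Low libraries had a total under 1 in 5, or detected genes under 1 in 2, of the median. TPM used annotated lengths. Column names were matched to samples by prefix, number and experiment. No libraries were duplicates (lowest chi-square per gene 20.6 over 9316 pairs).

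On simulated data of 14117 genes for SR1848 against DMSO, the test recovered 82.61% of genes set 2 lower on the log2 scale and 37.5% of those 1 lower. It recovered 40% of those 1 higher and 88% of those 2 higher, with 5 false calls among 13923 unchanged genes. The simulated data held few changed genes and no library that went against its label, so these rates need not hold in the embryos.

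Members and gene lists were chosen with earlier results of these data known. Named genes were, per main comparison, the 5 members of each subunit that changed most in the common direction and up to 3 in the other, role genes and paralog pairs, the members with the 3 highest and 2 lowest TPM per subunit in DMSO embryos, untested members, and the 2 genes with the smallest p of each other list. Rpl12, Rpl13, Rpl26, Rps2, Rps16 and Rps28 were added after their values were seen. A few members that this rule takes in, or that the plots of fold changes would show, are not reported here singly and stay in all counts and medians.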

Additional observations from a re-analysis of the deposited data

Results flagged for a closer look

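Among the 10 libraries labelled DMSO of experiment 2, a value was called far when its gap to the nearest other library exceeded 0.466 of the group's range. The highest library was far for 7 of 44 values examined. Chance gives about 1 in 20 for like libraries and independent values, and that rate does not apply here, since 8 of the 10 libraries go against their labels and genes of one library vary together. The log2 ratio of large-subunit to small-subunit counts reached 1.74 there and Rplp0 reached 3770 CPM, both in libraries that go against their labels. Rpl39l reached 111 CPM, Rps7 104 CPM and Rpsa 180 CPM, and the hardly detected Rpl32l and Rpl6l reached 1.22 and 1.82 CPM.

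Differences between the experiments passed the interaction test for named members (experiment 2 minus experiment 1, log2). In SR1848 with NR5A2 mRNA against SR1848 they were 5.74 for Rpl36a and 3.71 for Rpsa. In SR1848 against DMSO they were 1.96 for Rpl11, 3.28 for Rpl23, 3.35 for Rpl3l, 2.04 for Rps23, 2.48 for Rps27a and 3.19 for Rps7. Rpl36a and Rps12 had the opposite sign, at -3.79 and -1.35. Over all genes the interaction passed for 30.3% in SR1848 against DMSO, where 19 of 81 members passed. In SR1848 with NR5A2 mRNA against SR1848 it passed for 4.58% of all genes and 3 of 81 members. Without the 16 and the low libraries no member passed the interaction test in SR1848 against DMSO.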

How the results depend on the processing

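The count of members that fell in SR1848 against DMSO was 68, and it was 40 of 81 in experiment 2 alone, where 3155 of 15266 genes fell. The 2 that rose became 1, of the large subunit, with no filter on low counts, with relative log expression or total count scaling and with DESeq2. In experiment 1 alone neither of them passed, and 1 other member, of the small subunit, rose. In experiment 2 alone 0 rose, with or without the 16. In SR1848 with NR5A2 mRNA against SR1848, the 57 that rose became 18 of 81 in experiment 2 alone without the 16. In that setting 4237 of 18665 genes rose, a share near that of the members. The 2 that fell became 1 there and with the replicate block, 0 in experiment 2 alone, and 4 without the 16, the low and the 9 of low Nr5a2, a setting chosen after the data were seen. Against DMSO, members that rose with NR5A2 mRNA numbered 0 as labelled, 1 without the 16 libraries, 2 without the low libraries, 1 without both and 1 when the 9 of low Nr5a2 were left out too, and the 59 that fell became 0 in experiment 2 alone. Members that differed between experiments in SR1848 against DMSO numbered 19 of 81, where 30.3% of all genes differed. They numbered 12 with no filter, 11 with relative log expression scaling, 1 without the 16, 44 without the low libraries and 0 without both. The share of all genes past the threshold was not counted in these other settings. For NR5A2 mRNA against SR1848 the 3, against 4.58% of all genes, became 0 without the low libraries and 1 without both. The difference of the mean log2 share, SR1848 minus DMSO, was -1.12, and -2.14 without the 16 and the low libraries, with or without the 9, -2.01 in experiment 1 and -0.24 in experiment 2.

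Of 1110 values of named members under an alternative, 943 kept direction and side of the threshold, 69 no longer passed, 39 newly passed, 30 untested differences moved and 29 turned. Scaled to the maternal list, SR1848 against DMSO gave -0.89 for Rpl17 and -1.36 for Rps27l, and NR5A2 mRNA against SR1848 gave 0.19 for Rpl17, 0.65 for Rps27l, 0.24 for Rpl3, 1.00 for Rplp0 and 1.09 for Rplp2. In experiment 2 without the 16, NR5A2 mRNA against SR1848 gave -0.096 for Rpl11 and -0.0062 for Rps4l. Without the 16, the low and the 9 it gave -0.010 for Rpl11, 1.17 for Rpl36a and 0.33 for Rps12, and SR1848 against DMSO gave -3.69 for Rpl36a. In experiment 1 it gave -1.98 for Rpsa. Rps12 moved to 0.34 without the low libraries and 0.39 without both. Rpl36a in SR1848 against DMSO, 0.07 as labelled, was -3.10 with the replicate block, -3.41 without the low libraries, -3.76 without both, -2.50 in experiment 2, -3.97 there without the 16, -1.12 with relative log expression scaling and -3.57 with DESeq2. In NR5A2 mRNA against SR1848, Rpl36a was 1.97 with the block, 1.85 without the low libraries, 1.25 without both, 2.20 in experiment 2, 1.21 there without the 16 and 1.80 with DESeq2. The causes were not tested, beyond the high values of Rpl36a and Rpsa in the low library SR1848 8.

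Replicate numbers did not pair the embryos. Same-numbered libraries of SR1848 and DMSO had correlations of -0.14 to 0.20 over 27 pairs, with 2 closest to their own number, and those of NR5A2 mRNA and SR1848 had -0.32 to 0.29 over 41 pairs, with 2 closest. With the replicate block 69 of 81 members fell in SR1848 against DMSO, where 4959 of 14507 genes fell. In NR5A2 mRNA against SR1848 48 members rose, where 3377 genes rose. In NR5A2 mRNA against DMSO 50 members fell, where 2527 genes fell.

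Values near 1 CPM rest on a few counts per library, and their folds are imprecise. In experiment 2, without the 16, the DMSO group holds 2 libraries.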
